A study of Mus musculus with 4 samples.

Results

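Insulin-like growth factors (IGFs) are secreted peptides that act through the IGF1 receptor and, in part, the insulin receptor. Both receptors are tyrosine kinases that recruit adaptors such as IRS1 and pass the signal to PI3K and AKT and to RAS and ERK. IGF binding proteins (IGFBPs) are secreted too: they hold IGFs in the fluid around cells, limit or prolong their access to the receptor, and are cut by dedicated proteases. In the liver, IGF2 is the IGF of the fetus, whereas IGF1 from hepatocytes becomes the main one after birth.

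The genes described are 6 of the binding proteins (Igfbp2 to Igfbp7), the ligand gene Igf1, the receptor genes Igf1r and Insr, and the adaptor gene Irs1. They were chosen by name, as probe sets that the platform annotation gives exactly 1 symbol, and all 10 were found among 18193 genes measured in this way. They have 28 probe sets between them, of which 23 exceeded the signal floor (100.001, defined with the processing of the signals) somewhere and 16 on every array. By their brightest probe set, all 10 genes exceeded it somewhere and 8 on every array.

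RNA came from 4 cultures of fetal liver progenitor cells from mice lacking p53 (p53-/-), each hybridised to 1 Affymetrix expression array. The control culture is labelled non-transformed, and the others are labelled as transformed with H-RasV12 (a constitutively active H-Ras), with myr-Akt (AKT tethered to the membrane by a myristoyl tag) or with c-Myc. Every culture, the control included, lacks p53 and grew with 10% fetal bovine serum, 20 ng/ml EGF, 50 ng/ml HGF, dexamethasone, nicotinic acid, 2-mercaptoethanol and an insulin-containing supplement (ITS). The sources used here do not give the promoters driving the oncogenes or the number of clones or pooled animals per culture. With 1 array for each culture there is no spread between replicates, so no test was possible, and the order of neighbouring values cannot be set against an error.

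Signals are linear MAS5 values, scaled so that each array had a 2% trimmed mean of 500.003. A signal at or under 20% of that mean was set to the floor of 100.001 before log2 was taken. A gene is called higher or lower where its log2 difference is at least 1 in size (2-fold), and a difference with 1 array at the floor is a lower bound on the fold. Between 9492 and 10216 genes were above the floor on each array. As a check of the labels, the 1 Myc probe set read 2285.2 in the control, 1747.1 with H-RasV12, 639.7 with myr-Akt and 420.6 on the array labelled c-Myc, the lowest of the 4. The sources used here do not say whether that probe set reads the introduced sequence, and the brightest Akt1 probe set (1870.1, 2760.3, 2833.9 and 2991.3 in the same order) was not highest on the myr-Akt array. The direction given for each culture rests on the label of its array.

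The cell type in the labels was set against marker genes. The hepatoblast and hepatocyte genes Afp, Alb, Hnf4a and Ttr were under the floor on the non-transformed, myr-Akt and c-Myc arrays, and lay between 167.6 and 568.3 on the H-RasV12 array. Of 13 such markers, 5 were above the floor on the non-transformed array, 10 on H-RasV12, 4 on myr-Akt and 4 on c-Myc. Foxa3, Prox1 and Onecut1 were under it on all 4. Foxa1 was above it with H-RasV12 alone (294.9). Apoa1 read 638.2 in the control and 4299.7 with H-RasV12, and was under the floor with myr-Akt and c-Myc. The rest of the list pointed another way: Foxa2, Met, Gpc3 and Dlk1, genes of the fetal liver bud and its progenitors, were above the floor on all 4 arrays. Gpc3 read 3575.6 in the control, 311.6 with H-RasV12, 1889.5 with myr-Akt and 3904.0 with c-Myc, and Dlk1 read 116.7, 262.4, 145.1 and 1898.0. The markers thus bear on the progenitor label in both directions. Of 7 mesothelial markers (genes of the liver's surface lining) 6, 5, 7 and 7 were above the floor, and of 15 mesenchymal and stellate markers 12, 12, 9 and 7. Of 7 markers of simple epithelium and bile ducts, 7, 6, 4 and 3 were, with summed signals of 8848.3, 19592.9, 2552.5 and 3930.8. None of 8 endothelial markers (Pecam1 and Cdh5 among them) was above the floor on any array. Of 6 blood cell markers Cd68 alone was, reaching 131.4, while Ptprc was under it throughout.

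Across the family the members called against the control were partly shared between the 3 transformed cultures. On the H-RasV12 array, 0 of 10 genes were called higher and 2 lower (Igfbp2 and Igfbp6), while 2.08% of 10679 genes above the floor on at least 1 array were higher and 6.27% lower. The median log2 difference of the 10 was -0.29, and that of all genes 0.00. On the myr-Akt array, 1 gene was called higher (Igfbp5) and 5 lower (Igfbp3, Igfbp6, Igfbp7, Igf1r and Irs1), against 4.90% and 12.7% of all genes, with a median of -1.08 against -0.02. On the c-Myc array, 1 was higher (Igfbp5) and 3 lower (Igfbp2, Igfbp6 and Igfbp7), against 4.42% and 11.3% of all genes, with a median of -0.18 against 0.00. The 3 comparisons share the 1 control array, so a low or high control signal moves all of them together. Igfbp6 was the member called in all 3.

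**Figure D1:**
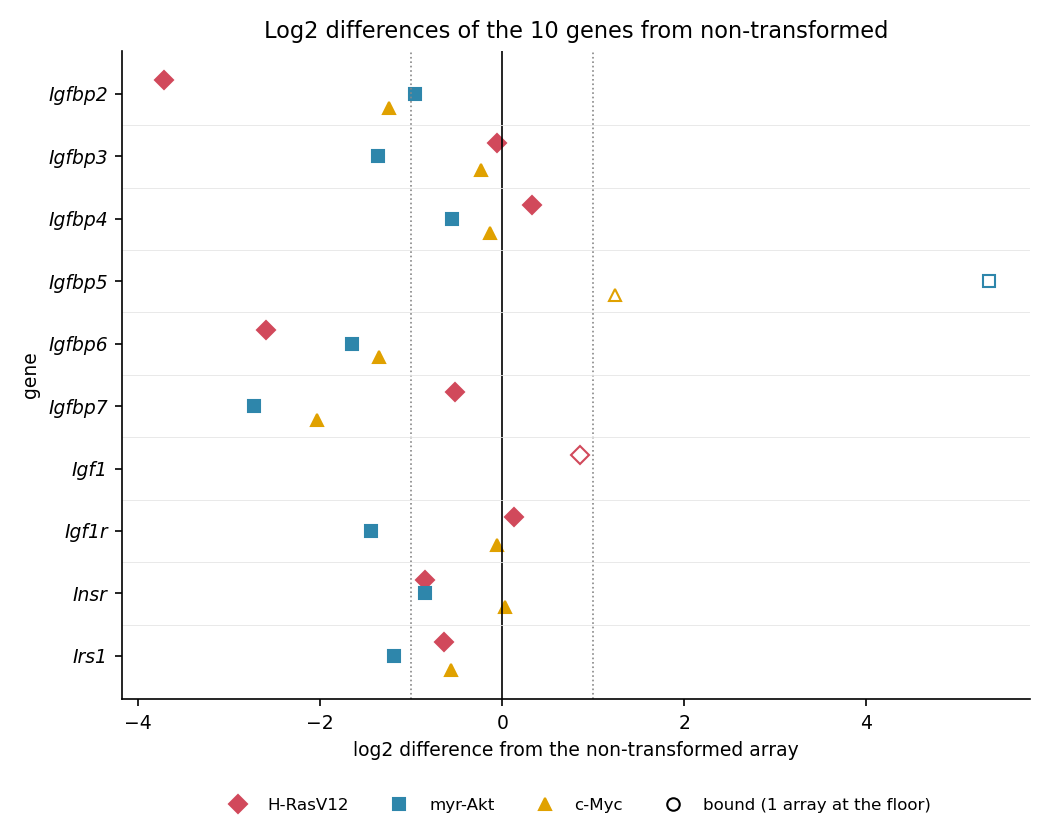
Each row is a gene and each symbol its log2 difference from the non-transformed array (horizontal axis, log2 units) for the H-RasV12, myr-Akt and c-Myc arrays, 1 array each. Dotted lines mark 2-fold, open symbols are bounds, and a gene at the floor on both arrays has no symbol. Igfbp2 and Igfbp6 lie farthest left for H-RasV12, Igfbp7 for myr-Akt, and Igfbp5 lies far right for myr-Akt at 5.34.

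Igfbp2 encodes a binding protein abundant in fetal tissue, with some preference for IGF2. Its signal was 8260.5 on the non-transformed array, 624.7 on H-RasV12, 4241.6 on myr-Akt and 3485.4 on c-Myc. It was highest in the control and lowest with H-RasV12, where it was 13.2-fold lower and the 9th lowest of 9679 genes above the floor on both arrays. On the c-Myc array it was 2.37-fold lower. On the myr-Akt array it was 1.95-fold lower, just short of 2-fold (log2 difference -0.96, or -1.03 after quantile normalization). A single probe set measured Igfbp2.

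Igfbp6 encodes the family member with the strongest preference for IGF2 over IGF1. Its 1 probe set gave 3566.7 in non-transformed cells, 591.8 with H-RasV12, 1140.3 with myr-Akt and 1398.2 with c-Myc. As for Igfbp2, the control was highest and H-RasV12 lowest. The control exceeded H-RasV12 by 6.03-fold, myr-Akt by 3.13-fold and c-Myc by 2.55-fold.

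Mesothelial markers were also lower on the H-RasV12 array, where Igfbp2 and Igfbp6 were lowest. Of the 7, all of which were above the floor on some array, 6 were at least 2-fold lower and 0 higher. Their summed signal was 10452.4 against 49293.1 in the control, 34949.7 with myr-Akt and 35360.8 with c-Myc. Msln went another way: it was 2.53-fold lower with H-RasV12, but 32.9-fold lower with myr-Akt and 22.5-fold with c-Myc. It was the 1 marker of the 7 called lower on those last arrays, and Krt14 was the 1 called higher there. Of the 7 epithelial and biliary markers, 4 were at least 2-fold higher with H-RasV12 and 1 lower (Krt8 was 5.73-fold and Krt18 2.91-fold higher). Gpc3 was 11.5-fold lower with H-RasV12. The part of such cells in the Igfbp2 and Igfbp6 values was not tested. In RNA from a whole culture, fewer cells of a type and less RNA per cell cannot be told apart.

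Igfbp7 encodes a more distant relative that binds IGFs weakly and insulin, and that lies in the matrix around vessels and stroma. Its brightest probe set read 15986.5 in non-transformed cells, 11161.1 with H-RasV12, 2413.2 with myr-Akt and 3888.4 with c-Myc. The control and H-RasV12 arrays were high and the other two low. Igfbp7 was 6.62-fold lower than control with myr-Akt and 4.11-fold lower with c-Myc, and 1.43-fold lower with H-RasV12, short of the 2-fold line. A second, dimmer probe set was also lower, at 213.2 in the control and under the floor with myr-Akt and c-Myc, at least 2.13-fold in each. The third was under the floor on all arrays.

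Igfbp3, the chief carrier of IGFs in adult serum, gave 1378.9 in non-transformed cells, 1322.0 with H-RasV12, 536.1 with myr-Akt and 1174.2 with c-Myc. Only the myr-Akt array stood apart, 2.57-fold lower than the control. The second probe set of the gene gave 1340.0, 1378.6, 389.2 and 1240.1 in the same order, and differences of 0.04, -1.78 and -0.11 from the control.

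Igfbp4, generally a restraint on IGF action until it is cut, was read by 6 probe sets. By the brightest, the signal was 13022.2 in the control, 16365.9 with H-RasV12, 8895.1 with myr-Akt and 11865.1 with c-Myc. All 6 probe sets were higher than control with H-RasV12 (log2 differences from 0.26 to 0.98) and lower with myr-Akt (from -1.04 to -0.55). With myr-Akt 1 of the 6 passed 2-fold, and with H-RasV12 0 did. The 2 brightest probe sets showed the smallest differences in both comparisons. Between these oncogenes directly, 4 of the 6 were at least 2-fold higher with H-RasV12, although the brightest was 1.84-fold higher and so not called.

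Of mesenchymal and stellate markers, 5 of 13 above the floor on some array were at least 2-fold lower with H-RasV12, 6 with myr-Akt and 7 with c-Myc, where 6.27%, 12.7% and 11.3% of all genes were. With myr-Akt 1 was higher, Postn, by at least 4.7-fold: it read 470.4 there and was under the floor on the other arrays, as Igfbp5 was in the control and with H-RasV12. Their summed signal over 15 genes was 138154.3 in the control, 92967.8, 81553.1 and 68376.5. Of the epithelial and biliary markers, 4 of 7 were lower with myr-Akt and 3 with c-Myc, and 0 higher (Krt18 was 11.5- and 10.9-fold lower). The part of such cells in the Igfbp7, Igfbp3, Igfbp6 and Igfbp5 signals was not tested.

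**Figure D2:**
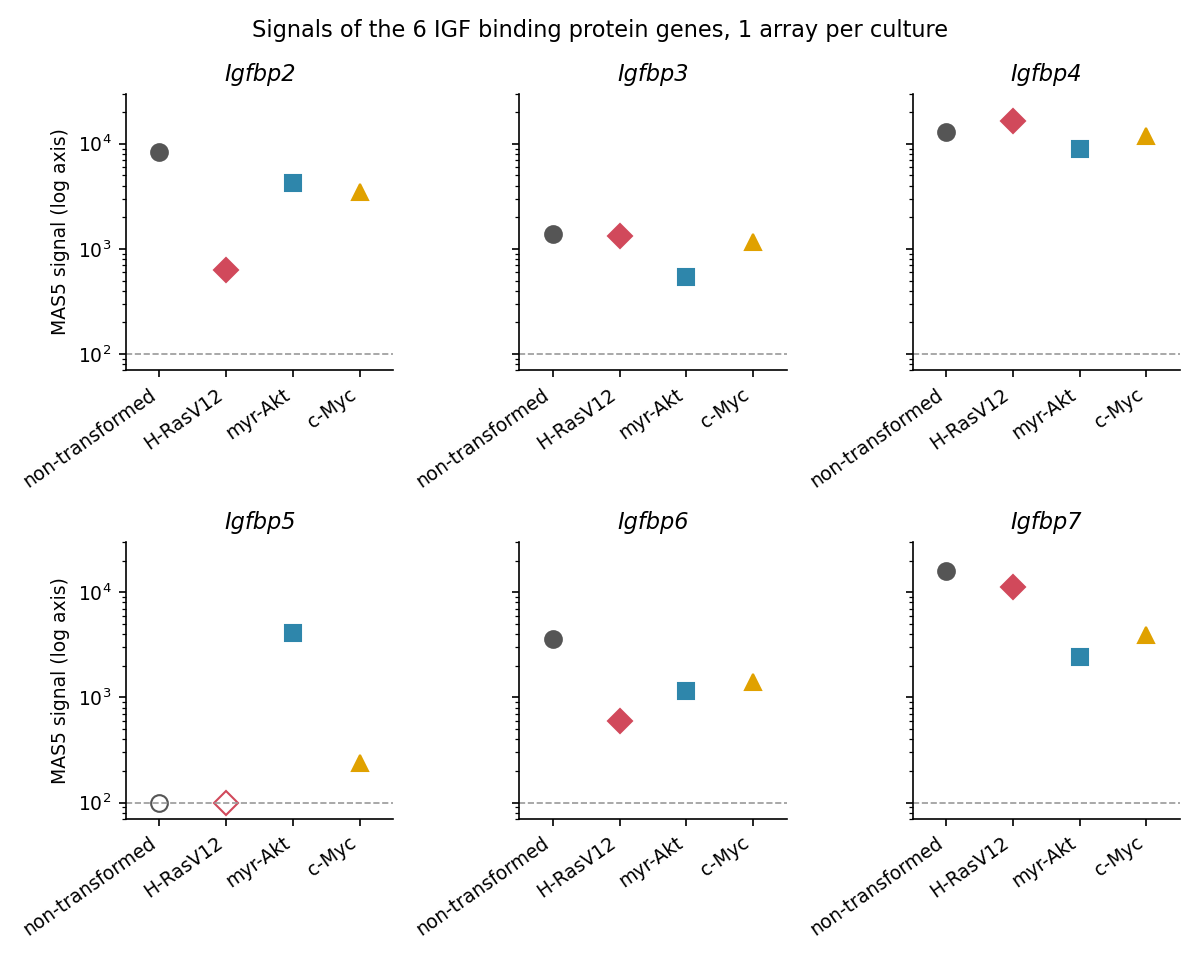
Each panel is a binding protein gene, with the MAS5 signal of its brightest probe set (vertical log axis) on the 4 arrays. The dashed line is the floor of 100.001, and open symbols are signals at or under it. H-RasV12 is lowest for Igfbp2 and Igfbp6, myr-Akt for Igfbp3, Igfbp4 and Igfbp7, and Igfbp5 is at 4051.9 with myr-Akt against the floor in the control.

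Igfbp5 encodes a binding protein that sticks to matrix and is typical of muscle, bone and stroma. It ran opposite to the other binding proteins on the myr-Akt array. Its brightest probe set gave 18.3 in non-transformed cells and 76.9 with H-RasV12, both under the floor, then 4051.9 with myr-Akt and 236.4 with c-Myc. Against the control it was at least 40.5-fold higher with myr-Akt and at least 2.36-fold higher with c-Myc. The myr-Akt array exceeded the c-Myc array by 17.1-fold, with both above the floor. Of 9241 genes above the floor on those 2 arrays, Igfbp5 was the one with the lowest value of c-Myc relative to myr-Akt.

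The second Igfbp5 probe set was dim. It read 54.9 in the control, 24.0 with H-RasV12, 125.3 with myr-Akt and 42.8 with c-Myc. It was highest on the same array, but its bound of 0.33 on the log2 scale is far from 2-fold. The c-Myc call rests on a signal close to the floor: with the floor at 40% of the trimmed mean the difference was 0.24, and averaged over both probe sets 0.62. The myr-Akt call was kept under each of these alternatives, although the log2 difference averaged over both probe sets was 2.83 in place of 5.34.

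Igfbp2 and Igfbp5 are neighbours on mouse chromosome 1, with 0 protein-coding genes between them in the RefSeq gene table. Relative to the control, the Igfbp2 signal was lower and that of Igfbp5 higher on both the myr-Akt and c-Myc arrays (for Igfbp2 with myr-Akt short of 2-fold). Igfbp1 and Igfbp3 are likewise neighbours, on chromosome 11. Igfbp1 was under the floor on all arrays, with signals from 1.4 to 20.4, whereas Igfbp3 was above it on all 4.

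The 250 bases before the annotated start of Igfbp2 and Igfbp5, the neighbours that differed in direction, and of Igfbp6 and Igfbp7, the other genes spanning at least 2 on the log2 scale, are given from RefSeq (GRCm38.p6), 5′ to 3′ on the gene's strand. They lie at chr1:72824230-72824479 (plus strand, Igfbp2), chr1:72874866-72875115 (minus, Igfbp5), chr15:102143936-102144185 (plus, Igfbp6) and chr5:77408046-77408295 (minus, Igfbp7). Capitals mark matches, on either strand, to an E-box (CACGTG), a FOXO motif (TGTTTAC), an AP-1 motif (TGANTCA), an SP1 motif (GGGCGG) or a TATA motif (TATAAA). No marked matches overlap.
Igfbp2: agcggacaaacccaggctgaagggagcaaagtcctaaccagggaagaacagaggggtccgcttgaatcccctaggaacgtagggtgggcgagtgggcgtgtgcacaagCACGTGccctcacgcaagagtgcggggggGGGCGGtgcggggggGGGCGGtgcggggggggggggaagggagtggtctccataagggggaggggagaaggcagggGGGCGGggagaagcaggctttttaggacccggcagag
Igfbp5: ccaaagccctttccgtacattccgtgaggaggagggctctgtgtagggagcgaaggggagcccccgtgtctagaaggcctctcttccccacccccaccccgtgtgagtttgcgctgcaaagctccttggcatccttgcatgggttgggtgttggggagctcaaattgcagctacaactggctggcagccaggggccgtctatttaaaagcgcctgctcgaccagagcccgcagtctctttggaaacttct
Igfbp6: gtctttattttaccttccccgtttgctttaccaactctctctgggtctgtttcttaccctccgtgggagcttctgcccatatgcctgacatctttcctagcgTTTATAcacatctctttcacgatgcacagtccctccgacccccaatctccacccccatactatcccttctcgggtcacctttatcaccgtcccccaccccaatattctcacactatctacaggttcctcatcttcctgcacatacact
Igfbp7: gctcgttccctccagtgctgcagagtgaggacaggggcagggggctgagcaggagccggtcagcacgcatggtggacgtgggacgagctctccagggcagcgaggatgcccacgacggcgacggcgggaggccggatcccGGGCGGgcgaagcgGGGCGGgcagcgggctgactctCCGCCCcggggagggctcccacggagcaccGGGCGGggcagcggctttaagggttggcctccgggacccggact

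The Igfbp2 window held 1 E-box and 3 SP1 matches, that of Igfbp7 4 SP1 matches and that of Igfbp6 1 TATA match, 148 to 143 bases before the start and on the reverse strand. That of Igfbp5 held no match to these letters. A further Igfbp2 start in the RefSeq table, whose window is not printed, had 1 AP-1 match, 39 to 33 bases before it. Among 32851 windows of this length in the RefSeq table, 6.02% held the E-box, 3.17% the FOXO motif, 6.75% the AP-1 motif, 32.7% the SP1 motif and 12.4% the TATA motif. Of the 10 genes, 9 were in the table, all but Insr. These had 10 windows, with Igfbp2 alone having more than 1, whereas the shares above are per window. Of the 9, 2 had an E-box (Igfbp2 and Irs1), 0 a FOXO motif and 2 an AP-1 motif (Igfbp2 and Igf1) in any window. An SP1 motif was found for 4 and a TATA motif for 2. G and C made up 67.2%, 58.8%, 49.6% and 74.0% of the bases in the windows of Igfbp2, Igfbp5, Igfbp6 and Igfbp7, against a median of 52.4% over all windows. A match is a description of the letters and not a site shown to be bound.

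Igf1, the ligand gene, was near or under the floor on every array. Its brightest probe set gave 74.7 in non-transformed cells, 180.8 with H-RasV12, 56.3 with myr-Akt and 11.8 with c-Myc. It was above the floor with H-RasV12 alone, at least 1.81-fold higher than the control, which is short of a call. With the floor at 10% of the trimmed mean it passed 2-fold (log2 difference 1.28). Of its 4 probe sets, 3 were above the floor with H-RasV12 and under it in the control. The fourth read 102.9 in the control and 97.0 with H-RasV12.

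Igf2, the fetal ligand and an imprinted gene, is not among the 10 but was above the floor on all 4 arrays. Its signal was 3974.8 in non-transformed cells, 621.2 with H-RasV12, 8384.4 with myr-Akt and 16943.4 with c-Myc. It was thus 6.4-fold lower with H-RasV12 and 2.11- and 4.26-fold higher with myr-Akt and c-Myc. Igfbp2 and Igfbp6, whose products bind IGF2, were low on the H-RasV12 array as Igf2 was, but were below the control on the other arrays, where Igf2 was above it.

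Igf1r encodes the main signalling receptor for both IGFs. The brightest probe set read 3429.3 in non-transformed cells, 3743.2 with H-RasV12, 1268.0 with myr-Akt and 3286.5 with c-Myc. The myr-Akt array alone was low, 2.70-fold under the control, 2.95-fold under H-RasV12 and 2.59-fold under c-Myc. The next probe sets gave 1770.0, 1855.1, 719.6 and 1599.3, and 785.2, 848.1, 393.7 and 823.4, with myr-Akt lowest in each. All 3 were at least 2-fold lower than both other oncogenes, and 2 of the 3 passed 2-fold against the control while the third fell just short of it. The other 2 probe sets were under the floor on all arrays. Averaging all 5 gave -0.75 against the control and ended the call, since probe sets at the floor add a difference of 0.

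Insr encodes the insulin receptor, which can also pair with the IGF1 receptor and bind IGF2. Its signal was 555.1 in non-transformed cells, 307.2 with H-RasV12, 308.2 with myr-Akt and 566.5 with c-Myc. The H-RasV12 and myr-Akt arrays were low to the same degree (1.81- and 1.8-fold) and c-Myc was near the control. None of these differences reached 2-fold. The further 2 probe sets were under the floor throughout.

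Irs1 encodes the adaptor that links both receptors to PI3K. Its 1 probe set read 2753.5 in non-transformed cells, 1768.7 with H-RasV12, 1202.8 with myr-Akt and 1867.5 with c-Myc. The control was highest and myr-Akt lowest, at 2.29-fold under the control. The other arrays were 1.56- and 1.47-fold under it. Irs2, the related adaptor of liver, was named after its values were seen. Its signal was 932.7, 1133.8, 480.6 and 1246.3 in the same order. It too was lowest with myr-Akt, at 1.94-fold under the control, which is not a call.

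**Figure D3:**
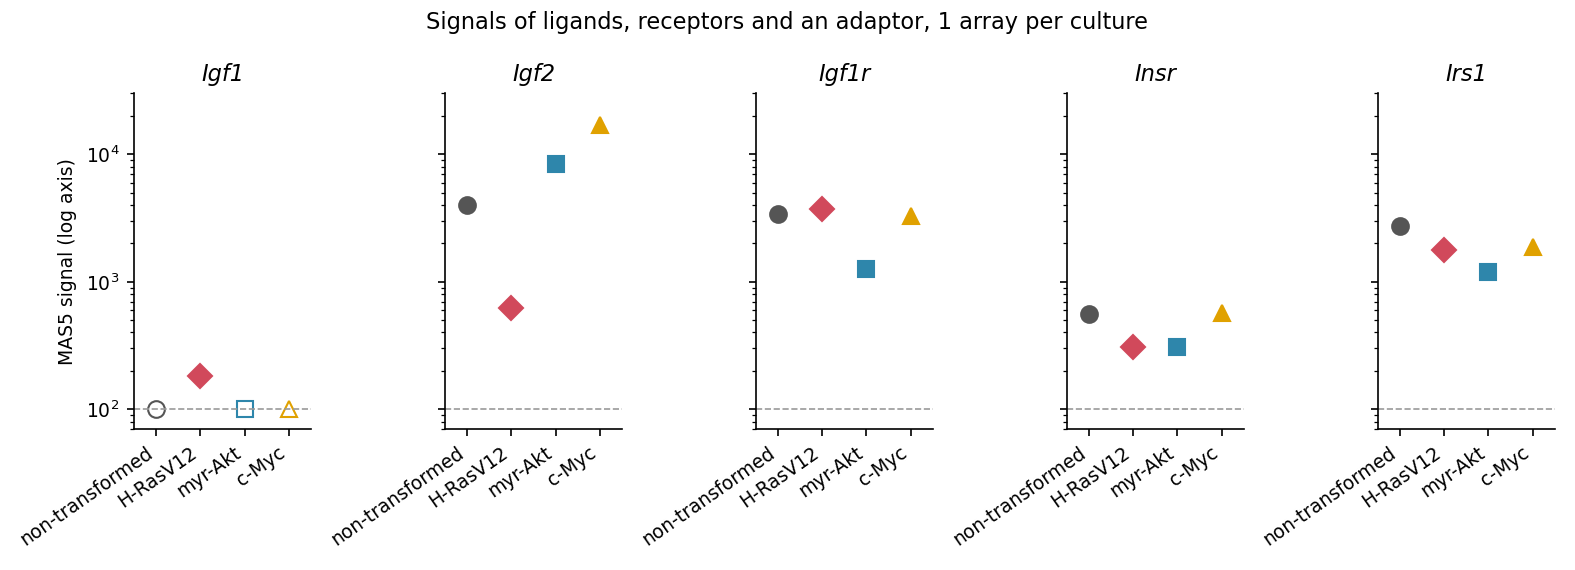
MAS5 signals (vertical log axis) of the ligand genes Igf1 and Igf2, the receptor genes Igf1r and Insr and the adaptor gene Irs1 on the 4 arrays, by the brightest probe set. The dashed line is the floor and open symbols are at or under it. Igf1r and Irs1 are lowest with myr-Akt, at 1268.0 and 1202.8, and Igf2 is lowest with H-RasV12 at 621.2.

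**Figure D4:**
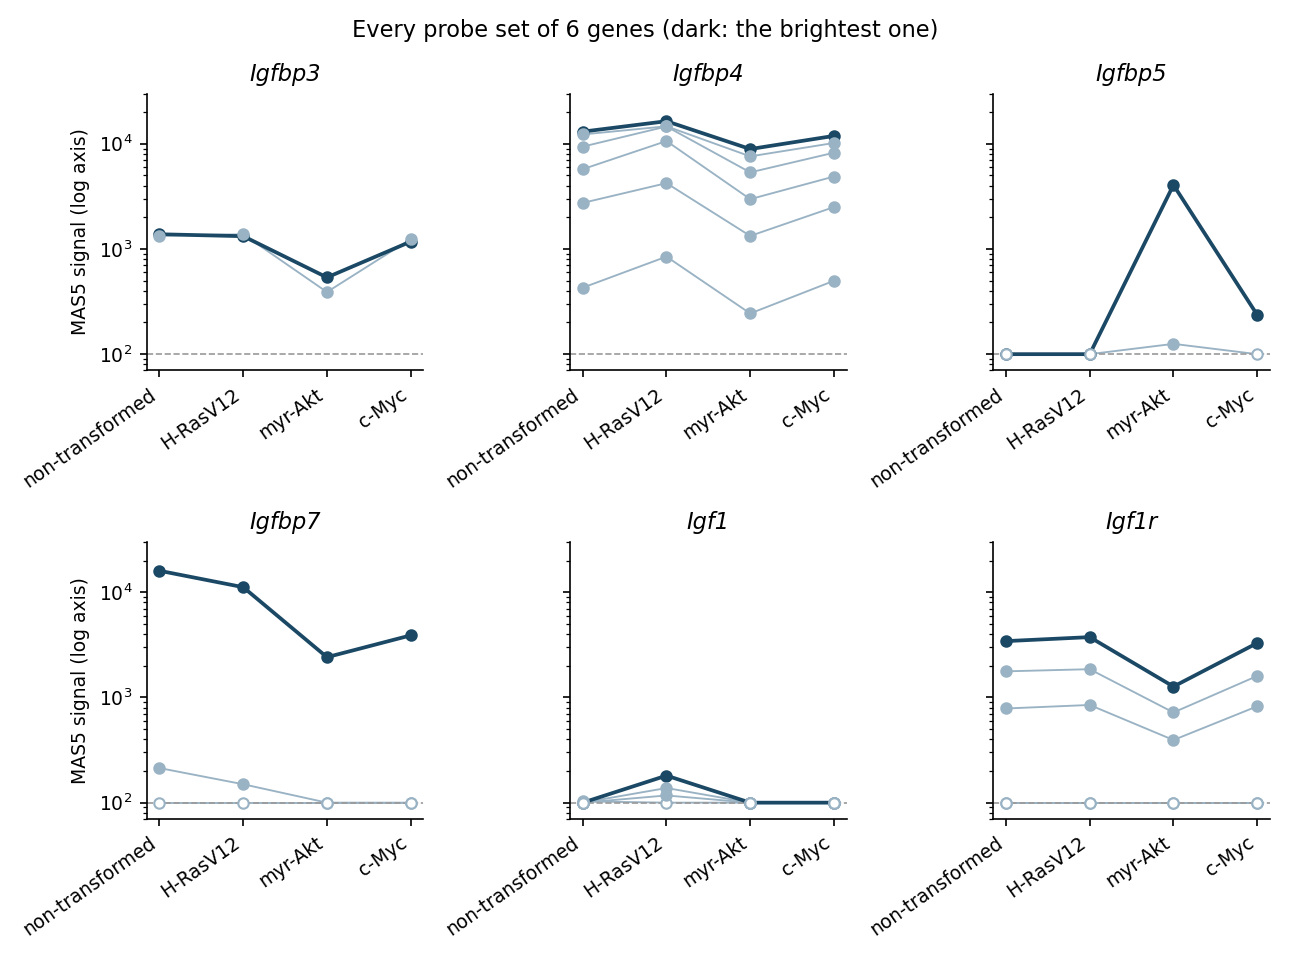
Signals of every probe set (vertical log axis) of 6 genes with several probe sets, on the 4 arrays, with the brightest in dark and signals at or under the floor drawn at it as open circles. Lines join the values of a probe set and stand for no order of the cultures. The bright probe sets of Igfbp3, Igfbp4 and Igf1r run in parallel and dip with myr-Akt, while the second Igfbp5 probe set stays near the floor at 125.3.

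The transformed cultures were also set against each other, which leaves the control array out. With H-RasV12 against myr-Akt, 3 genes were higher (Igfbp3, Igfbp7 and Igf1r) and 2 lower (Igfbp2 and Igfbp5), where 9.35% and 4.38% of all genes were. With H-RasV12 against c-Myc, 1 was higher (Igfbp7) and 3 lower (Igfbp2, Igfbp5 and Igfbp6), against 8.76% and 5.11%. Igfbp2 was 6.79-fold lower with H-RasV12 than with myr-Akt and 5.58-fold lower than with c-Myc. Igfbp7 was 4.62-fold and 2.87-fold higher with H-RasV12 than with those oncogenes. Averaged over its 3 probe sets the log2 differences of Igfbp7 were 0.93 and 0.70, which ended both calls, and the bound from its second probe set was 0.58 in each. Against myr-Akt, the same averaging ended the Igf1r call (0.81) and took Igfbp4 past 2-fold (1.43 in place of 0.88). The Igfbp5 call against c-Myc is a bound of -1.24 and was lost with the 40% floor (-0.24), a pseudocount (-0.93) and averaging (-0.62). By the brightest probe sets, these values place Igfbp2 and Igfbp7 on the H-RasV12 array at opposite ends of the transformed cultures.

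The arrays labelled c-Myc and myr-Akt were the closest pair of those compared, with 2.01% of genes at least 2-fold higher and 1.53% lower on c-Myc. Of the 10 genes, 2 were called higher on c-Myc (Igfbp3 by 2.19-fold and Igf1r by 2.59-fold) and 1 lower (Igfbp5, given above). Averaging over probe sets ended that Igf1r call (0.72). Insr was 1.84-fold higher on c-Myc and Irs1 1.55-fold, both short of a call. Both receptor genes and Irs1 thus had lower signals with myr-Akt than with c-Myc. Igfbp2, Igfbp4, Igfbp6 and Igfbp7 differed by 1.22-, 1.33-, 1.23- and 1.61-fold between these arrays.

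Other genes of IGF and insulin signalling were read from a list of 50, of which 46 had a usable probe set and 38 exceeded the floor somewhere. With H-RasV12, 1 of the 38 was at least 2-fold higher and 5 lower, where 2.08% and 6.27% of all genes were. With myr-Akt the counts were 3 and 3 (all genes 4.90% and 12.7%), and with c-Myc 2 and 3 (4.42% and 11.3%). Their medians were -0.03, -0.17 and -0.01, and those of all genes 0.00, -0.02 and 0.00. Averaged over probe sets, the counts were 0 and 3 for H-RasV12, 1 and 2 for myr-Akt and 1 and 1 for c-Myc. This ended the calls of Pappa, Gab1 and Igf2bp1 with H-RasV12, of Igf2, Stc2 and Socs2 with myr-Akt and of Stc2, Grb14 and Socs2 with c-Myc. Probe sets at the floor add a difference of 0 to such means. The second Socs2 probe set differed by -2.31 in both comparisons, and its dimmer ones were under the floor throughout, as was the second of Grb14. The second Igf2 probe set was under the floor in the control and with myr-Akt. The second probe sets of Gab1 and Igf2bp1 differed by less than 2-fold. That of Pappa was under the floor with H-RasV12, and its difference of -0.33 is a bound. That of Stc2 was under the floor in the control, and its differences of 0.2 with myr-Akt and 0.63 with c-Myc are bounds. With the floor at 40% of the trimmed mean, the c-Myc count higher was 1, without Stc2.

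Of the genes for proteases that cut binding proteins, several were past 2-fold. Htra1, a secreted serine protease that can cut IGFBP5, had signals of 6511.4 in the control, 2152.3 with H-RasV12, 799.6 with myr-Akt and 973.7 with c-Myc. It was 3.03-, 8.14- and 6.69-fold under the control, and its second probe set differed by -1.63, -3.27 and -2.97. Pappa2, a metalloprotease for IGFBP3 and IGFBP5, read 493.4, 42.3, 24.5 and 431.7. It was at least 4.93-fold lower with H-RasV12 and with myr-Akt, where it was under the floor, and was near the control with c-Myc. Pappa, a protease for IGFBP4 among others, read 262.1, 39.3, 139.9 and 294.3, at least 2.62-fold lower with H-RasV12. Stc2, a secreted inhibitor of PAPPA, read 115.4, 164.1, 307.8 and 388.1, 2.67-fold higher with myr-Akt and 3.36-fold with c-Myc. The 40% floor ended both Stc2 calls, and a pseudocount in place of the floor ended that with myr-Akt. The second probe sets of Pappa and Stc2 gave bounds short of 2-fold in these comparisons. The Igfbp5 signal was high with myr-Akt, where that of Htra1 was lowest, that of Pappa2 was under the floor and that of Pappa was 139.9. Htra1 was nearly as low with c-Myc, where Igfbp5 read 236.4. With H-RasV12 both Pappa2 and Igfbp5 were under the floor. A relation between these genes was not tested.

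Receptors, adaptors and brakes gave few calls. Igf2r, the receptor that clears IGF2, had signals between 2311.3 and 3034.8, all within 2-fold. Grb10, an adaptor that dampens both receptors, lay between 14463.0 and 15735.7. Gab1, a docking protein of RAS and PI3K signalling, was 2.25-fold lower with H-RasV12, and Grb14, which inhibits the insulin receptor, was 2.83-fold lower with c-Myc. Socs2, a brake on growth hormone signalling that also binds the IGF1 receptor, read 855.9 in the control, 853.9 with H-RasV12, 107.5 with myr-Akt and 62.0 with c-Myc. It was 7.96-fold lower with myr-Akt and at least 8.56-fold lower with c-Myc, and level with the control with H-RasV12. Socs6 stayed between 1248.8 and 2211.7.

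Downstream of the receptors, Pik3r3, a regulatory PI3K subunit, read 319.8, 316.0, 800.4 and 315.6, and was 2.5-fold higher with myr-Akt. It was the 1 gene of 7 in its group past 2-fold against the control. Inppl1, which encodes a lipid phosphatase of that group, lay between 1802.3 and 2725.0. None of 8 genes for mTOR complexes, their regulators or targets was called by its brightest probe set in any comparison with the control, including Eif4ebp1 (4986.9 to 6951.2). A dimmer probe set passed 2-fold for Rictor with H-RasV12 (1.15), Mtor with myr-Akt (1.1) and Tsc1 with c-Myc (1.02). Of the IGF2 mRNA binding proteins, which hold Igf2 transcripts among others, Igf2bp1 was 2.28-fold higher with H-RasV12, where its next probe sets differed by 0.29 to 0.89. Igf2bp3 lay between 1538.7 and 2296.7.

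**Figure D5:**
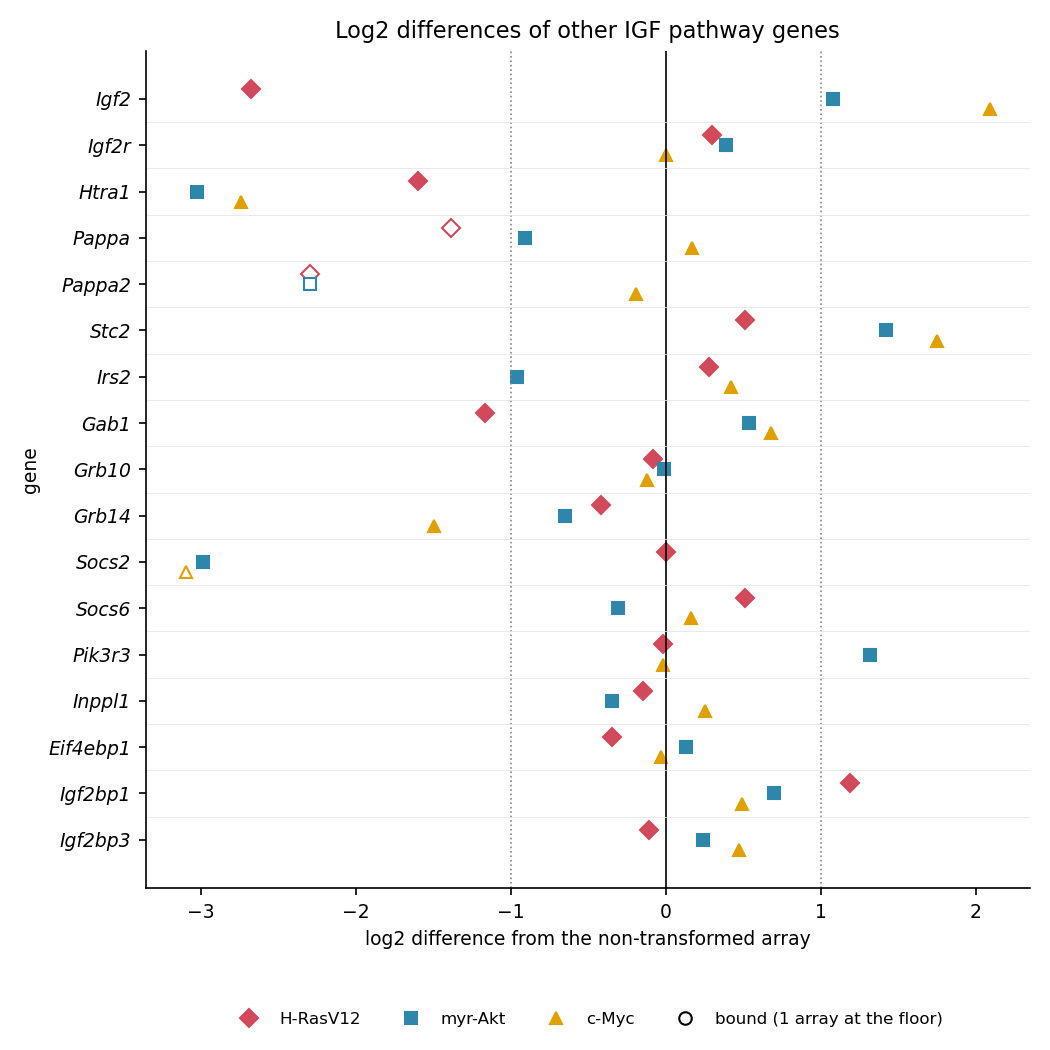
Log2 differences from the non-transformed array (horizontal axis) for other genes of the pathway, 1 row a gene, for the H-RasV12, myr-Akt and c-Myc arrays. Dotted lines mark 2-fold and open symbols are bounds. Igf2 lies left for H-RasV12 and right for the other cultures, while Htra1 lies left for all 3.

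For the members whose signals spanned at least 2 on the log2 scale, the genes with the most similar pattern over the 4 arrays were found by the mean absolute difference of log2 values centred on each gene's mean, among 10387 genes. With 4 arrays many genes run alike, so these are descriptions. Nearest to Igfbp2 were Ogn (0.12), a small leucine-rich proteoglycan, Gas6 (0.19), a ligand of AXL-family receptors, and Fam110c (0.28). Ogn read 1641.3, 108.8, 626.1 and 589.1 on the non-transformed, H-RasV12, myr-Akt and c-Myc arrays. Nearest to Igfbp6 were Cadm4 (0.085), an adhesion molecule, Cys1 (0.12) and the protease gene Adamts1 (0.14). Nearest to Igfbp7 were Fbln2 (0.08), a matrix fibulin, Emp3 (0.08) and Spata13 (0.11). Fbln2 read 16810.5, 9941.3, 2364.3 and 4012.0 on the same arrays. The Igfbp5 pattern had no gene as close: Hoxd8 (0.73), Ugt8a (0.78) and the hormone gene Fgf21 (0.78) came nearest, all highest with myr-Akt.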

How the data were processed

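The authors deposited 1 intensity per probe set and array on a linear scale, and MAS5 is the tool named in the submitters' processing notes. The sources used here give no MAS5 version, detection calls or filters. Of 45101 probe sets, 64 controls were left out. The 34945 probe sets with 1 symbol in the platform annotation named 18193 genes, and 34741 matched the RefSeq table of GRCm38.p6 by Entrez identifier. A gene was read from its brightest probe set by mean signal, and its other probe sets were compared with that one. Arrays were brought to a common 2% trimmed mean, floored at 20% of it and put on the log2 scale (Python 3.11.15, pandas 2.3.3). Backgrounds count the 10679 genes that exceeded the floor on some array, and ranks the genes that exceeded it on both arrays compared. The calling step was run on simulated data with planted changes well past 2-fold in genes well above the floor. That run does not bear on calls near 2-fold or near the floor.

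The members and gene lists were chosen with earlier results of these data known. By rule, the text names all members, pathway genes past 2-fold against the control and the brightest other gene of a role, and for members spanning at least 2 on the log2 scale the 3 genes most alike. The alternatives were floors of 10% and 40%, a pseudocount, quantile normalization, averaging over probe sets and no filter on dim genes. Pathway genes with no single-symbol probe set were not analysed here, and no scan batch was known.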

Additional observations from a re-analysis of the deposited data

How the results depend on the processing

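The counts of members called against the control were recomputed under 6 alternatives. With the floor at 10% of the trimmed mean, 1 member (Igf1) was higher on the H-RasV12 array in place of 0. The count higher on the c-Myc array fell from 1 to 0, with Igfbp5 no longer called, with the floor at 40% and with the mean over probe sets. The other counts stayed within 1.5 times. Of 277 single differences, 261 kept their side of 2-fold, 6 passed 2-fold and 10 no longer did. Of those past 2-fold at first, 0 reversed, and the direction of smaller ones was not compared. Many could not change. Another floor leaves signals above both the old and the new floor as they are, and averaging leaves genes with 1 probe set as they are. Quantile normalization moved 1 of 56 across the line.

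Over all genes, the count higher on H-RasV12 was 136 with a pseudocount, against 222, and the count lower was 436 with the mean over probe sets, against 670. On myr-Akt 341 were higher with that mean, against 523. On c-Myc 298 were higher with a pseudocount and 293 with that mean, against 472. For c-Myc against myr-Akt, 215 were higher and 163 lower, against 133 and 115 with a pseudocount, 129 and 102 with that mean and 140 and 106 with the 40% floor.

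No paired analysis was possible because each group holds 1 array, and for the same reason no replicate was left out. Values near the floor (Igf1, and Igfbp5 on c-Myc) are the least certain.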
